A study of Drosophila melanogaster with 12 samples.

Results

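The comparison sets S2R+ cells transfected with wild-type Rbp9 (Rbp9WT) against S2R+ cells transfected with wild-type Fne (FneWT), with 2 libraries per group. S2R+ is an established Drosophila melanogaster cell line with hemocyte-like properties. Every library with values in the series comes from this line, and the transfected cells received their construct with the Effectene reagent. The labels give neither the promoter of the constructs nor the time after transfection, nor whether the untreated cells received the reagent. Libraries were matched within replicate number, and every gene averaging 1 CPM or more (CPM, read counts scaled to a common library total) across the 4 libraries was taken, which gave 9312 of 13777 genes. The series has 12 samples of transcript 3'-end sequencing, each made from 2 ug of total RNA. The deposited table gives values for 8 of them, the other 4 libraries being 2 of untreated cells and 2 of cells given wild-type Elav (ElavWT), which served as context and for the estimate of spread. The remaining 4 samples, whose labels name RRM mutants, are not analysed here.

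Rbp9 and Fne belong with Elav to the ELAV/Hu family of RNA-binding proteins. Their RNA recognition motifs bind U-rich sequences in transcripts. In neurons the family acts on splicing and on the choice between poly(A) sites, where it favours extended 3' UTRs, and its members share many targets. Rbp9 is also known from the female germline. The comparison asks how far the transcriptomes left by these related proteins differ in a cell line in which neither protein is normally abundant. The values are a single level per gene, so a change in the poly(A) site used within a gene was not measured.

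The recovered depth was 8047518 and 5497197 reads in FneWT replicates 1 and 2, and 8761568 and 5020094 reads in Rbp9WT. A single read was worth 0.124 and 0.182 CPM in FneWT and 0.114 and 0.199 CPM in Rbp9WT. rRNA-named genes held 3.77% of the reads in FneWT replicate 1 and 4.75% in Rbp9WT replicate 1, but 24.8% in FneWT replicate 2 and 15.4% in Rbp9WT replicate 2. The 4 columns were therefore rescaled by median ratios before testing, with little effect in replicate 1 (ratio of factors 0.995) and more in replicate 2 (1.22). Without that step the median gene would have differed by 0.11 on the log2 scale. Some hemocyte genes fitting the line were present. crq, a scavenger receptor for apoptotic cells, read 356 and 169 CPM in FneWT and 338 and 183 CPM in Rbp9WT. srp, a GATA factor of blood cells, read 88.0 and 48.8 against 82.6 and 42.4 CPM. Other hemocyte genes were lower, with eater at 5.72 and 16.6 against 13.2 and 23.7 CPM and He near the floor at 0.497 and 0 against 2.97 and 0.797 CPM. Nothing in the labels says that the replicates came from separate cultures, so p-values measure the spread between these libraries, which may be technical.

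The transfected genes were checked first. Rbp9 (FBgn0010263, plus strand of arm 2L from 2954762 to 2968434) stood at 713 and 58.8 CPM in Rbp9WT, against 7.46 and 2.55 CPM in FneWT. The remaining libraries held 3.34 and 2.35 CPM in untreated cells and 6.20 and 2.34 CPM in ElavWT. Rbp9 was thus 95.6-fold higher in Rbp9WT than in FneWT in replicate 1 and 23.1-fold higher in replicate 2, and both Rbp9WT libraries lay above all 6 others. The log2 difference was 5.11 ± 0.65 (SE; 95% interval 3.62 to 6.60; 6.35 and 3.87 in the 2 pairs). It did not pass in the limma fit across all genes (adjusted p = 0.213), where the unequal size in the 2 pairs enters the spread of the gene. DESeq2 on the recovered reads passed it (5.72, adjusted p = 1.07e-22).

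fne (FBgn0086675, plus strand of X from 12917477 to 12950417) did not separate the groups. It read 97.4 and 48.0 CPM in FneWT, and 114.8 and 2.79 CPM in Rbp9WT. Rbp9WT replicate 1 therefore held more fne than FneWT replicate 1, against what its label would give, while in replicate 2 fne was 17.2-fold higher in FneWT. Untreated cells had 6.67 and 1.91 CPM and ElavWT cells 49.8 and 4.47 CPM, so all 3 transfected groups stood well above untreated cells in replicate 1. Reads of a construct and of the endogenous gene cannot be told apart in these values, and whether the library labelled Rbp9WT replicate 1 holds RNA of another sample was not tested. The log2 difference was -1.87 ± 1.22 (SE; 0.24 and -3.98 in the pairs; adjusted p = 0.993, limma). Without Rbp9WT replicate 1 it was -3.43 (adjusted p = 4.96e-08, limma), the lone remaining Rbp9WT library being assumed to vary like the others. Values without Rbp9WT replicate 1 are given below for the named genes, the gene groups with the largest medians and chromosome 4, while counts over both pairs need that library.

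**Figure D1:**
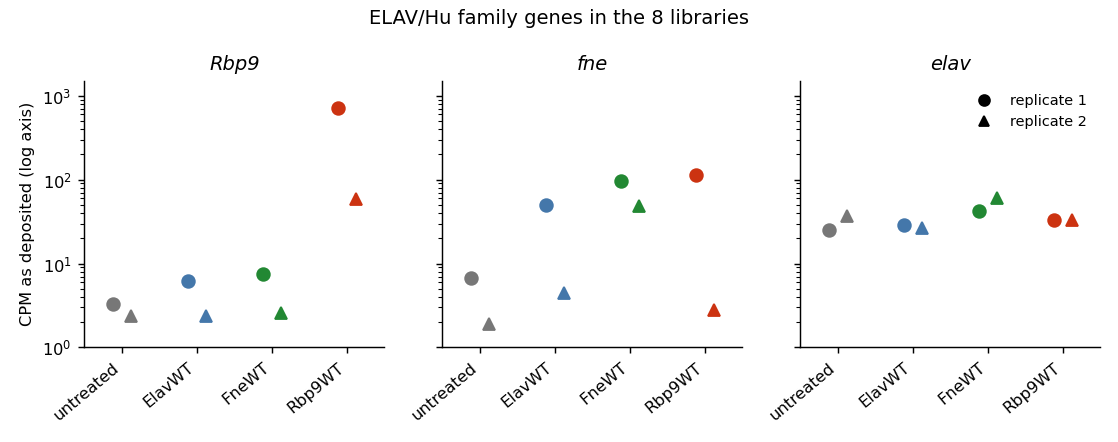
Levels of Rbp9, fne and elav in CPM (log axis) in the 8 libraries, with circles for replicate 1 and triangles for replicate 2. Rbp9 is at 713 and 58.8 CPM in Rbp9WT and at most 7.46 CPM elsewhere, whereas fne in Rbp9WT is at 114.8 CPM in replicate 1 and 2.79 CPM in replicate 2.

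elav (FBgn0260400, minus strand of X from 509235 to 523226), the third family member and transfected in neither group, read 42.7 and 59.7 CPM in FneWT and 33.3 and 32.7 CPM in Rbp9WT. The FneWT libraries lay above the Rbp9WT libraries in both pairs, and above untreated cells (24.9 and 37.3 CPM). ElavWT cells, labelled as given wild-type Elav, read only 29.2 and 26.6 CPM. On the rescaled log2 scale they lay below untreated cells in both replicates (4.65 and 5.07 against 4.76 and 5.66). The level of elav thus did not mark the ElavWT libraries, and whether these values count reads of that construct was not tested. The log2 difference was -0.74 ± 0.28 (SE; -0.34 and -1.13 in the pairs) and did not pass (adjusted p = 0.846, limma). elav overlaps arg and lncRNA:enrr, and the sources used here do not state whether counting used strand.

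Across the transcriptome, Rbp9WT and FneWT were close. In replicate 1 the SD of the log2 differences over all 9312 genes was 0.416, the smallest of the 6 pairs of groups in that replicate, and in replicate 2 it was 0.558, beside 0.548 between Rbp9WT and ElavWT. The same SD between the 2 replicates of a group was larger, at 1.19 in FneWT and 0.994 in Rbp9WT. The median gene differed between the proteins by 0.232 and 0.343 log2 units in the 2 pairs, without regard to sign, and between replicates by 0.761 in FneWT and 0.617 in Rbp9WT. The difference between the proteins was thus smaller than the difference between replicate numbers, which is why it was taken within them.

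No gene passed at an adjusted p under 0.05 in the limma fit with replicate number as a block (0% higher and 0% lower of 9312). The lowest adjusted p was 0.115, for CG14984. At an unadjusted p under 0.05 there were 491 genes (5.27% of those tested), of which 240 (2.58%) were higher and 251 (2.7%) lower in Rbp9WT. With the deposited scaling this split was 405 higher and 116 lower, so the balance of directions depended on the scaling. The share of 5.27% is close to the 0.05 that the threshold itself passes where no gene differs. edgeR on the recovered reads passed 1 gene as lower (0.0107%), CG14984, and none as higher. DESeq2 passed 2 genes as higher (0.0215%), Rbp9 and gus, and 2 as lower (0.0215%), CG14984 and CG17124. A limma fit of the 4 compared libraries alone, with 1 residual degree of freedom, passed 44 as higher (0.473%) and 59 as lower (0.634%). Without Rbp9WT replicate 1 the fit of the other 7 libraries passed 2 as higher (0.0215%) and 6 as lower (0.0644%), fne among them. For the median gene the 95% interval reached 0.69 log2 units to either side of the difference. For 4936 genes (53.01%) this interval lay within 2-fold in either direction. For 9122 genes (98.0%) it lay within 4-fold. Differences smaller than these intervals could not be told from 0 with 2 libraries a group. The intervals are not adjusted for the number of genes. Larger differences also did not pass in limma, that of Rbp9 (5.11 log2 units) among them.

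The pairs of libraries shared part of their differences. The sign was the same in both pairs for 58.3% of genes: 2617 (28.1%) were higher in Rbp9WT in both pairs and 2815 (30.2%) lower in both. The differences in the 2 pairs correlated at 0.307 (Pearson) and 0.268 (Spearman) across genes, which are not independent replicates. Few genes were far apart in both pairs: 26 (0.279%) were at least 2-fold higher in Rbp9WT in both pairs and 55 (0.591%) at least 2-fold lower.

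**Figure D2:**
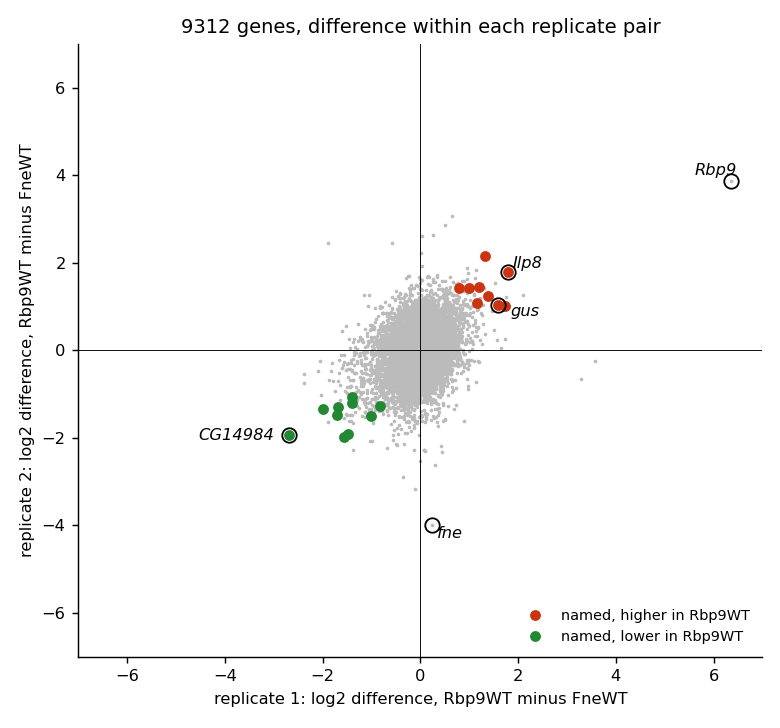
Log2 difference of Rbp9WT minus FneWT in replicate pair 1 (x axis) and pair 2 (y axis) for 9312 genes, with the named higher genes in red and the named lower genes in green, and 5 genes circled. Rbp9 stands alone at 6.35 and 3.87, fne lies at 0.24 and -3.98, and CG14984 at -2.70 and -1.94.

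Beyond Rbp9, 9 genes were named as higher in Rbp9WT by lowest p with the same sign in both pairs. None passed in the limma fit of all 8 libraries (adjusted p 0.319 to 0.551). gus (FBgn0026238, arm 2R from 5116990 to 5128321, minus strand), which encodes the SPRY-domain and SOCS-box protein Gustavus that binds Vasa, read 270 and 188 CPM in Rbp9WT against 89.0 and 74.6 CPM in FneWT. Untreated cells had 82.1 and 57.9 CPM of gus and ElavWT cells 69.9 and 56.0 CPM, so both Rbp9WT libraries lay above the other 6. The log2 difference was 1.32 ± 0.27 (SE; 1.59 and 1.04 in the pairs), with an adjusted p of 0.319 in limma and 0.0163 in DESeq2.

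CG33217 (arm 3L from 23126025 to 23132209, plus strand) read 166 and 49.999 CPM in Rbp9WT and 62.8 and 16.7 CPM in FneWT, a log2 difference of 1.32 ± 0.28 (SE). pho (chromosome 4 from 1172469 to 1181628, minus strand), which encodes a DNA-binding protein of the Polycomb group, read 174 and 102 CPM against 77.7 and 39.3 CPM. Its difference was 1.12 ± 0.27 (SE; 1.16 and 1.08 in the pairs), and its FneWT values stood near those of untreated cells (88.8 and 39.2 CPM). Both genes were thus highest in Rbp9WT within each replicate number.

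Ilp8 (arm 3L from 17029812 to 17032080, minus strand), a relaxin-like peptide that coordinates growth with developmental timing, was near the floor outside Rbp9WT. It had 2 and 1 reads in FneWT and 36 and 16 reads in Rbp9WT (0.249 and 0.182 against 4.11 and 3.19 CPM). Untreated and ElavWT libraries held between 0 and 0.147 CPM. The log2 difference, 1.79 ± 0.42 (SE), is understated by the pseudocount at such levels.

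The other 5 were Muc30E, a mucin-type gene, at 189 and 50.4 against 109 and 14.9 CPM, CG5707 at 64.0 and 30.9 against 27.1 and 8.73 CPM, CG12493 at 116 and 12.4 against 57.7 and 3.27 CPM, the pseudogene CR41597 at 37.3 and 7.77 against 10.3 and 2.73 CPM, and lncRNA:CR41257 at 5.36 and 4.38 against 1.37 and 0.182 CPM. Their log2 differences ran from 1.11 for Muc30E to 1.73 for lncRNA:CR41257. lncRNA:CR41257 rests on 11 and 1 reads in FneWT. CG5707 and CG12493 were also higher in FneWT than in untreated cells (5.21 and 4.11 CPM, and 12.7 and 1.32 CPM).

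The genes lower in Rbp9WT had a different background. CG14984 (FBgn0035480, arm 3L from 3951193 to 3952550, minus strand) had the lowest p of all genes. It read 90.0 and 21.6 CPM in FneWT, 12.7 and 6.18 CPM in Rbp9WT, 7.89 and 2.77 CPM in ElavWT, and 1.11 and 1.17 CPM in untreated cells. FneWT thus stood above the other 3 groups within each replicate number. The log2 difference was -2.32 ± 0.39 (SE; -2.70 and -1.94 in the pairs), with an adjusted p of 0.115 in limma, 0.0114 in edgeR and 4.69e-05 in DESeq2.

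CG17124 (arm 2L from 10744075 to 10756325, minus strand) read 148 and 30.9 CPM in FneWT and 44.9 and 14.7 CPM in Rbp9WT. ElavWT read 113 and 21.9 CPM, and untreated cells held 5.98 and 2.35 CPM. On the log2 scale the groups differed by -1.49 ± 0.30 (SE; adjusted p = 0.246 in limma and 0.0114 in DESeq2).

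Mmp1 (arm 2R from 24671294 to 24688184, minus strand), a secreted and membrane-bound matrix metalloproteinase and a target of JNK signalling, read 372 and 59.7 CPM in FneWT and 139 and 34.1 CPM in Rbp9WT. ElavWT held 160 and 18.5 CPM and untreated cells 10.3 and 3.08 CPM, so FneWT was the highest group in both replicate numbers. Its log2 difference, -1.24 ± 0.30 (SE), did not pass (adjusted p = 0.551, limma). Mmp1 overlaps Pof, which was at 13.1 CPM or less in all 8 libraries.

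asRNA:CR44027 (chromosome 4 from 395396 to 395954, plus strand) read 51.4 and 46.9 CPM in FneWT and 18.5 and 24.3 CPM in Rbp9WT. It overlaps one end of dati on the opposite strand, and without strand reads from the overlap cannot be told apart, while dati itself read 62.0 and 18.6 against 47.3 and 12.7 CPM. Lmpt (arm 3L from 16865295 to 16922487, plus strand), a LIM-domain gene, read 140 and 57.5 against 77.5 and 28.3 CPM. CG34357 (arm 3R from 4491943 to 4558067, minus strand) read 63.1 and 22.7 against 30.6 and 9.16 CPM. The log2 differences of these genes were -1.31, -1.06 and -1.25.

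The 4 further lower genes were little expressed. CG5071 read 20.4 and 7.09 CPM in FneWT and 6.39 and 1.59 CPM in Rbp9WT, synr 8.08 and 5.64 against 1.83 and 0.996 CPM, and CG6749 10.3 and 4.55 against 1.60 and 1.59 CPM. Gpo3, of the glycerol-3-phosphate oxidase family, had 33 and 8 reads in FneWT and 3 and 0 reads in Rbp9WT. CG5071, CG6749 and Gpo3 were at 0.278 CPM or less in untreated cells. Without Rbp9WT replicate 1 the log2 differences ran from 1.13 (pho) to 2.03 (lncRNA:CR41257) among the higher genes, and from -2.28 (CG14984) to -1.09 (Mmp1) among the lower.

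**Figure D3:**
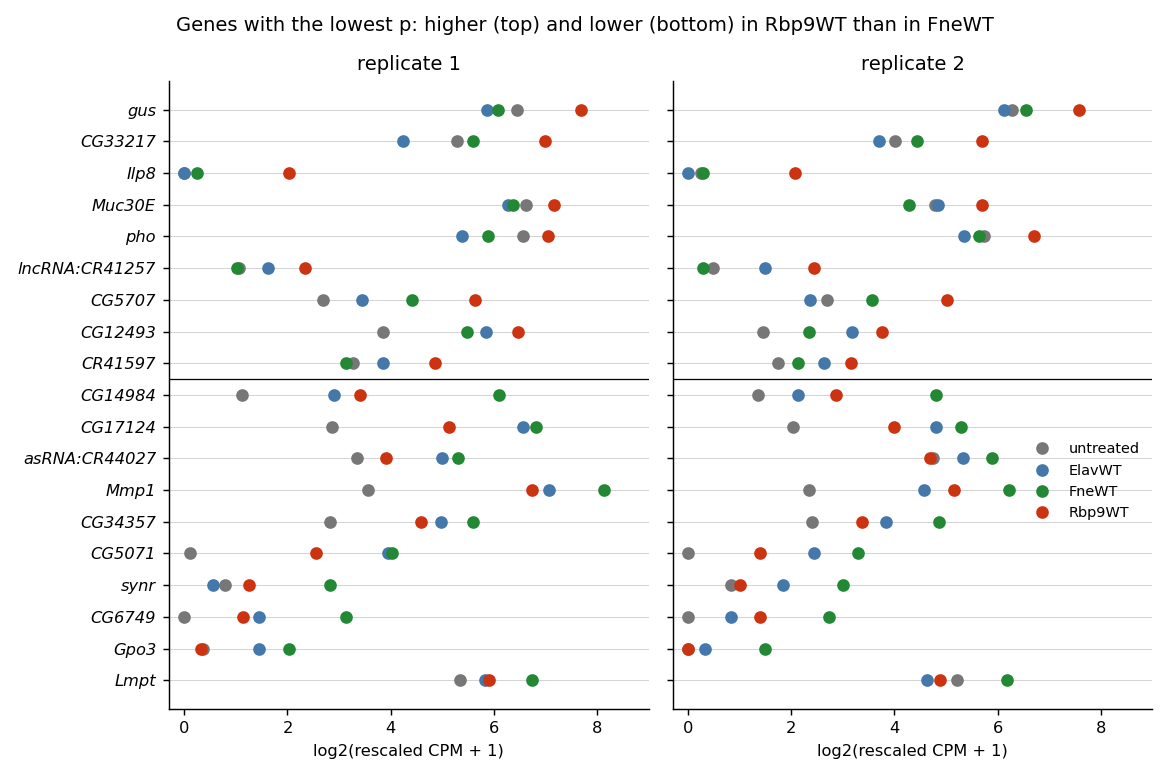
Rescaled log2(CPM + 1) of the 19 named genes in the 4 groups, with replicate 1 on the left and replicate 2 on the right; genes above the line are higher and those below it lower in Rbp9WT than in FneWT. gus in Rbp9WT stands to the right of the other 3 groups in both panels, and the lower genes CG14984 and Mmp1 reach their highest level in FneWT.

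The levels of these genes were also set against untreated cells. Of the 249 genes with an unadjusted p under 0.05 that were lower in Rbp9WT in both pairs, FneWT was above untreated cells in both replicates for 212 (85.1%), Rbp9WT for 129 (51.8%) and ElavWT for 148 (59.4%). Over all 9312 genes the shares were 37.7%, 39.0% and 32.5%. Of the 240 higher genes, Rbp9WT was above untreated cells in both replicates for 161 (67.1%) and FneWT for 51 (21.25%), while FneWT was below untreated cells for 117 (48.75%, against 35.5% of all genes). ElavWT lay nearer to FneWT than to Rbp9WT in both replicates on the log2 scale for 120 of the higher genes and nearer to Rbp9WT for 36. Among the lower genes it lay nearer to Rbp9WT for 101 (40.6%) and nearer to FneWT for 51 (20.5%). Of all genes tested, ElavWT lay nearer to Rbp9WT in both replicates for 28.7% and nearer to FneWT for 22.7%. The share of lower genes nearer to FneWT was thus close to that of all genes. Genes selected for a low or high FneWT level lie low or high against untreated cells in part by that choice, so these counts are a description and were not tested. The number of genes with an unadjusted p under 0.05 was also close to what that threshold passes where no gene differs.

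A further group was chosen by its level in ElavWT against untreated cells, although the filter of at least 1 CPM that it had to pass used the compared libraries. Genes at least 4-fold above untreated cells in both ElavWT libraries, on rescaled values with the pseudocount, numbered 116. In Rbp9WT, 79 of them (68.1%) were lower than in FneWT in both pairs and 14 (12.1%) higher, against 30.2% and 28.1% of all genes. Their median log2 difference was -0.44 (-0.56 and -0.30 in the pairs), beside -0.0044 for all genes. Relative to all genes it ran from -0.35 to -0.57 when 1 library was left out. At an unadjusted p under 0.05, 30 of the 116 were lower and 2 higher, beside 2.7% and 2.58% of all genes.

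Examples from this group, chosen after their values were seen, were of several kinds. CG14490 read 61.4 and 7.82 CPM in FneWT and 15.4 and 2.39 CPM in Rbp9WT, with 68.7 and 10.7 CPM in ElavWT. The cytochrome P450 gene Cyp6g2 read 8.82 and 6.91 against 2.74 and 3.19 CPM, and DJ-1alpha, a homologue of human PARK7, 16.9 and 4.91 against 5.71 and 2.39 CPM. The 2 higher genes were Oatp30B, an organic anion transporter, at 31.8 and 5.09 CPM in FneWT and 57.8 and 17.9 CPM in Rbp9WT, and SP1029, an aminopeptidase gene, at 11.4 and 4.37 against 29.4 and 11.95 CPM. FneWT and Rbp9WT both exceeded untreated cells for each of these genes.

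Of the known ELAV targets and genes with extended neural 3' UTRs, more were lower than higher in Rbp9WT, and none passed. Of 44 tested of 45 written, 4 were lower and none higher at an unadjusted p under 0.05 (2.7% and 2.58% of all genes). In both pairs 26 (59.1%) were lower and 5 (11.4%) higher, against 30.2% and 28.1% of all genes. Among the genes with the longest annotated 3' UTRs, described below, these shares were 41.8% and 19.7%. Among those with the longest annotated span they were 44.0% and 15.9%. Part of the shift was thus shared by long genes, and whether the list differs from them was not tested. The median log2 difference was -0.27 (-0.13 and -0.43 in the pairs). Without Rbp9WT replicate 1 it was -0.46 relative to all genes and without Rbp9WT replicate 2 it was -0.09, so its size differed by over 1.5-fold with the library left out. Nrg, a neuronal adhesion molecule whose splicing is a classical ELAV target, read 178 and 67.5 CPM in FneWT and 125 and 38.8 CPM in Rbp9WT (log2 difference -0.78 ± 0.27 SE, adjusted p = 0.71). nej, the CBP acetyltransferase, read 147 and 250 against 130 and 106 CPM. Msp300, a nesprin of the nuclear envelope, read 96.2 and 272 against 87.1 and 127 CPM. Both were apart mainly in replicate 2.

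Neuron markers had a median log2 difference of -0.13 over 32 genes of 33, with 17 (53.1%) lower and 6 (18.75%) higher in both pairs. None passed, and 4 were lower at an unadjusted p under 0.05, beside 2.7% of all genes. The summed level of the list was 2446 and 1333 CPM in FneWT and 2377 and 1325 CPM in Rbp9WT. Rim, which organises the presynaptic active zone, read 67.2 and 15.8 CPM against 48.1 and 4.38 CPM. Fas2, an axonal adhesion molecule, read 108 and 20.2 against 74.1 and 10.2 CPM. Neuronal genes did not all lie on the same side: the sodium channel gene para read 168 and 67.9 against 214 and 64.3 CPM, and Syt1, the synaptic vesicle calcium sensor, 25.0 and 2.55 against 28.5 and 3.59 CPM. Neural transcription factors (16 tested of 25) had a median of -0.25, with 8 lower and 2 higher in both pairs. Among them fru read 395 and 315 against 350 and 226 CPM, and none reached an unadjusted p under 0.05.

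Muscle markers had the lowest median among the lists of other tissues, -0.41 (-0.34 and -0.59 in the pairs) over 14 genes of 17. In both pairs 9 (64.3%) were lower and 2 (14.3%) higher, and none passed. At an unadjusted p under 0.05, 4 of the 14 were lower, beside 2.7% of all genes. Mhc, the muscle myosin heavy chain, read 10.4 and 1.82 CPM in FneWT and 4.22 and 0.398 CPM in Rbp9WT. Mlc2, a myosin light chain, read 31.7 and 5.28 against 14.2 and 2.99 CPM. The muscle LIM protein gene Mlp60A read 5.84 and 0.728 against 1.14 and 0 CPM, and bt, the titin-like projectin, 16.9 and 3.64 against 11.2 and 0.797 CPM. All 4 were low in untreated cells (at most 1.53 CPM). The summed level of the list was 739 and 838 CPM in FneWT and 798 and 497 CPM in Rbp9WT, so the sum did not follow the median in replicate 1. Relative to all genes the median was -0.79 without Rbp9WT replicate 1 and -0.22 without Rbp9WT replicate 2.

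Fat body markers, with 8 tested of 15, had a median of 0.21 (0.07 and 0.32 in the pairs), with 4 higher and 2 lower in both pairs. Adh, alcohol dehydrogenase, read 8.08 and 9.28 CPM in FneWT and 25.3 and 15.9 CPM in Rbp9WT, the only member at an unadjusted p under 0.05. Yp1 lay the other way, at 1.74 and 3.09 against 1.26 and 0.797 CPM. Of the hemocyte markers, 17 tested of 20, Pxn (peroxidasin, a matrix peroxidase) read 128 and 44.4 against 199 and 108 CPM and He (hemese) 0.497 and 0 against 2.97 and 0.797 CPM, while Fer1HCH, a ferritin subunit, read 483 and 301 against 420 and 204 CPM. In the list 8 genes were lower and 5 higher in both pairs, and its median was -0.12. Among germline markers, 10 tested of 13 with a median of 0.04, osk, the determinant of the germ plasm, read 121 and 28.6 CPM against 58.2 and 23.1 CPM. osk was at 1.88 and 1.17 CPM in untreated cells and 149 and 43.0 CPM in ElavWT. bam, a germline differentiation factor, lay the other way at 2.86 and 0.364 against 4.91 and 1.59 CPM, as did spn-E, a piRNA pathway helicase, at 15.2 and 9.28 against 25.9 and 11.8 CPM. In both pairs 3 of the germline markers were higher and 2 lower. Glia and epithelial markers, 11 tested of 14, had a median of -0.24 with no member at an unadjusted p under 0.05. In bulk samples, fewer cells of a type and less RNA per cell cannot be told apart.

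In the signalling, matrix, immune and stress lists no member passed, and the members named here are given by their values. In the JAK/STAT, JNK and EGF receptor list, 26 genes of 27 had a median of -0.19 that came from replicate 2 (0.02 and -0.31 in the pairs), and Ptp61F, a tyrosine phosphatase acting on JAK/STAT signalling, read 260 and 210 against 175 and 133 CPM beside Mmp1. Of the matrix genes, 19 tested of 20 with a median of -0.02, trol, the perlecan gene, read 328 and 50.4 against 196 and 41.8 CPM. Immune-induced genes, 15 tested of 32, had a median of -0.13 with no member at an unadjusted p under 0.05. Among them DptA, an antimicrobial peptide, read 8.82 and 1.27 against 3.77 and 0.398 CPM, while PGRP-LF lay the other way at 14.0 and 1.46 against 15.6 and 5.18 CPM. In both pairs 8 immune-induced genes were lower and 3 higher. Of the heat shock and stress genes, 25 tested of 27 with a median of 0.05, 6 were higher and 6 lower in both pairs. Thor, the 4E-BP translation inhibitor, read 21.7 and 14.2 against 13.2 and 7.17 CPM, and Hsp60A 91.3 and 21.1 against 102 and 51.0 CPM. Apoptosis and p53 genes, 15 tested of 18, had a median of 0.14 (-0.09 and 0.21 in the pairs), with 2 members higher and 3 lower in both pairs and none at an unadjusted p under 0.05.

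Growth and housekeeping lists had small medians on either side of that of all genes. Cell cycle and replication genes, 29 tested of 30, had 12 members (41.4%) higher and 5 (17.2%) lower in both pairs and a median of 0.11 (0.11 and -0.03 in the pairs). CycD, the cyclin that partners Cdk4, read 50.3 and 14.4 CPM in FneWT and 75.7 and 47.0 CPM in Rbp9WT, and Mcm5, a subunit of the replicative helicase, 26.1 and 4.73 against 42.9 and 15.1 CPM. Both differed by 0.98 on the log2 scale and neither passed (adjusted p = 0.565 and 0.71, limma). CycJ, an ovarian cyclin, read 7.21 and 3.27 against 3.65 and 1.39 CPM.

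Of the 81 cytosolic ribosomal protein genes, 48 (59.3%) were lower and 4 (4.94%) higher in both pairs, with a median of -0.16 (-0.10 and -0.21), and none passed. Relative to all genes the median was -0.15. It was 0.04 without Rbp9WT replicate 1 and 0.14 without FneWT replicate 2, so its direction turned with either library, and -0.36 and -0.42 without Rbp9WT replicate 2 and FneWT replicate 1. RpS21 read 513 and 955 CPM against 350 and 459 CPM. Oxidative phosphorylation genes lay the other way, with 14 of 32 (43.75%) higher and 4 (12.5%) lower in both pairs and a median of 0.13 (0.09 and 0.17). Relative to all genes it ran from 0.06 to 0.17 when 1 library was left out. Genes of the piRNA, siRNA and miRNA pathways, 19 tested of 20, had 9 higher and 5 lower and a median of 0.15. Translation factors (22 tested, median -0.10) and proteasome and chaperonin genes (39 tested, median -0.05) had no member at an unadjusted p under 0.05.

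None of the RNA-processing factors passed. Cleavage and polyadenylation factors, 18 tested of 21, had a median of 0.01, with 5 higher and 4 lower in both pairs and none at an unadjusted p under 0.05. Splicing and hnRNP genes, 35 tested of 36, had 12 lower and 6 higher in both pairs and a median of -0.10. At an unadjusted p under 0.05, 1 of them was lower, beside 2.7% of all genes. Rbfox1, a splicing regulator, read 141 and 232 CPM in FneWT and 109 and 147 CPM in Rbp9WT. Over the 22 lists, the family included, 11 medians lay below that of all genes in both pairs and 4 above. Without Rbp9WT replicate 1, medians relative to all genes were -0.28 for neuron markers, -0.45 for neural transcription factors, 0.06 for cell cycle genes, 0.27 for stress genes and -0.12 for splicing and hnRNP genes. When 1 library was left out in turn, the median relative to all genes changed sign for 10 of the 22 lists: germline, hemocyte, stress, matrix, apoptosis, cell cycle, cleavage and polyadenylation, ribosomal protein, translation factor, and proteasome and chaperonin genes.

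**Figure D4:**
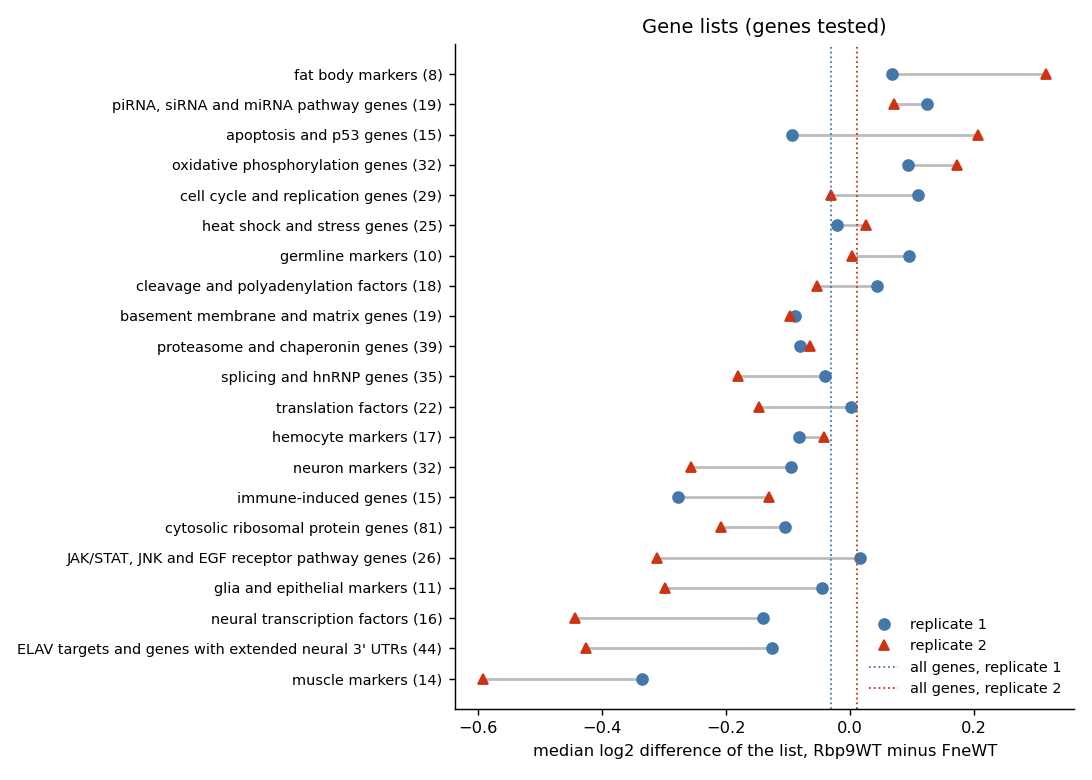
Median log2 difference of Rbp9WT minus FneWT for each gene list with at least 5 genes tested, in replicate pair 1 (circles) and pair 2 (triangles), with dotted lines for all genes. Muscle markers (-0.34 and -0.59) and ELAV targets (-0.13 and -0.43) are at the low end, and oxidative phosphorylation genes (0.09 and 0.17) are above the lines in both pairs.

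Long genes were slightly lower in Rbp9WT. Genes were sorted by length into 5 bins of near equal size. In the bin with the longest annotated 3' UTRs (1013 to 18494 bases, 1782 genes), the median log2 difference was -0.12 (-0.09 and -0.12 in the pairs) and 41.8% were lower in both pairs. The other bins had medians of 0.00 to 0.05. In the bin with the longest span in the annotation (at least 10106 bases, 1846 genes) the median was -0.15 and 44.0% were lower in both pairs, so long 3' UTRs and long genes lay on the same side. Relative to all genes, the median of the longest 3' UTR bin was -0.19 without Rbp9WT replicate 1 and -0.04 without Rbp9WT replicate 2, and that of the longest span bin -0.24 and -0.05. Whether the rRNA share or depth took part in this was not tested.

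The chromosomes were compared after values had been seen. Chromosome 4, a small and largely heterochromatic chromosome, had 12 of 85 tested genes higher (14.1%) and 6 lower (7.06%) at an unadjusted p under 0.05. The shares of all genes were 2.58% and 2.7%. Its median log2 difference was only 0.09 (0.11 and 0.01 in the pairs). The SD of its differences was 0.578, against 0.376 to 0.420 on X and the other arms, so the spread was wider in both directions. The higher genes included pho, CG31998 (339 and 164 CPM in Rbp9WT, 152 and 70.8 CPM in FneWT), Ephrin, an axon guidance ligand (286 and 162 against 163 and 72.4 CPM), and Mitf, a regulator of lysosomal genes (136 and 80.1 against 55.4 and 42.7 CPM). The kinase gene Dyrk3 read 178 and 109 against 84.2 and 48.2 CPM. Rbp9WT was above FneWT in both pairs for each of them. Among the 6 lower genes were ey, the eye selector gene (4.68 and 1.79 against 12.4 and 5.64 CPM), and bt.

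Both proteins stood above untreated cells on this chromosome. The median chromosome 4 gene lay 0.73 and 0.49 log2 units above untreated cells in FneWT, 1.04 and 0.46 in Rbp9WT, and 0.25 and 0.25 in ElavWT. The count of 12 higher genes was 17 with the deposited scaling, beside 4.35% of all genes. With totals that left out rRNA-named genes it was 15, beside 3.26% of all genes. It fell without Rbp9WT replicate 1 and without FneWT replicate 2, as did the count over all genes. The count of lower genes also changed with the library left out. Without Rbp9WT replicate 1 the log2 difference was 1.13 for pho and -1.30 for asRNA:CR44027. The X chromosome had 18 genes higher (1.12%) and 54 lower (3.35%) of 1611. With the deposited scaling it had 41 higher (2.55%) and 29 lower (1.80%), beside 4.35% and 1.25% of all genes, so which direction was more frequent on X changed with the scaling while X stayed below all genes in its share of higher genes and above them in its share of lower genes.

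**Figure D5:**
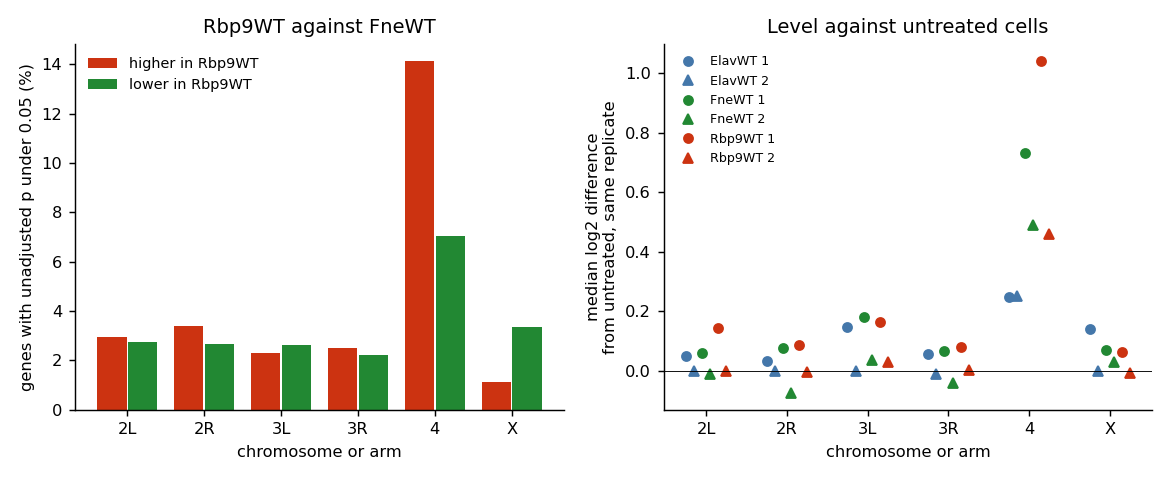
Left, share of tested genes with an unadjusted p under 0.05 (%) on each chromosome or arm, higher (red) or lower (green) in Rbp9WT than in FneWT. Right, median log2 difference from untreated cells of the same replicate number in each transfected library (circles replicate 1, triangles replicate 2); chromosome 4 has 14.1% higher and 7.06% lower genes and medians from 0.25 to 1.04.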

How the data were processed

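CPM per gene were computed by the authors from reads per gene by a method not given in the sources used here, and deposited as 1 table of 8 libraries and 13777 genes; the submitters' processing notes name dm6 as build. The aligner, the counter and the use of strand are likewise not given. Groups and replicate numbers come from the sample titles. Steps in the deposited CPM gave whole reads for 100% of values within 0.01 of a read. Gene names, coordinates and 3' UTR lengths come from the Ensembl BDGP6 annotation, which matched 13684 genes and left 93 unmatched; 11 rRNA-named genes stayed in.

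CPM were rescaled by median ratios over 8473 genes above 0 in all 8 libraries, and genes averaging 1 CPM or more in the 4 compared libraries were tested on log2(CPM + 1), so fold changes of low genes are understated. limma 3.58.1 (trend, robust) under R 4.3.3 used all 8 libraries, with replicate number as a block (3 residual degrees of freedom) and Benjamini-Hochberg adjustment over all genes tested. The block rests on the data: within each group the deviation from the mean was taken per library, and those with the same number correlated at 0.583 to 0.872 in every pair of groups, while the labels do not say what a number shares. The recovered reads were also tested with DESeq2 1.42.0 and, by quasi-likelihood, with edgeR 4.0.16. Floors and intervals from reads cover counting error only. The procedure was tested on simulated data. The planted differences were larger than most of those reported here, so that run does not measure the detection of smaller ones. Tables were prepared in Python 3.11.15 (pandas 2.3.3, numpy 2.4.6) and drawn with matplotlib 3.10.9.

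The compared genes and the gene lists were chosen with earlier results of these data known. Named genes are Rbp9, fne, elav and, since no gene passed, the 10 of lowest unadjusted p in each direction with the same sign in both pairs; Rbp9 is among the 10 higher. List members named are up to 4 per list by absolute difference with the same sign in both pairs; crq, srp, para, Syt1, dati, Pof and the members of the ElavWT-raised and chromosome 4 groups were chosen after their values were seen.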

Additional observations from a re-analysis of the deposited data

How the results depend on the processing

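The count of genes higher in Rbp9WT (0) was 1 with a pseudocount of 0.25, 1 with no filter on low values, 2 in DESeq2 and 44 in a limma fit of the 4 compared libraries alone. That fit has 1 residual degree of freedom. The count of lower genes (0) was 1 in edgeR, 2 in DESeq2 and 59 in the 4-library fit. Of its 103 calls, 100 had an unadjusted p under 0.05 with all 8 libraries, and 19 were the named genes other than Rbp9, fne and elav. Both fits take their log2 differences from the same 4 compared libraries, so this overlap is no independent support for the calls. Leaving out 1 library gave 0 to 2 higher and 0 to 6 lower genes. Without Rbp9WT replicate 1 these were Rbp9 and jef as higher, and fne, dpr9, lncRNA:CR45962, CG46314 and a pair of 28S rRNA pseudogenes as lower. Without FneWT replicate 2 the call was Con, at 102 and 11.8 CPM in FneWT and 1220 and 11.95 CPM in Rbp9WT.

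Rbp9 passed with a pseudocount of 0.25 (5.33, adjusted p = 0.0105, limma), with no filter (5.11, adjusted p = 0.0493, limma) and in DESeq2 (5.72), and its log2 difference ran from 3.78 to 6.44 when 1 library was left out. That of fne ran from -3.43 to -0.31 and that of elav from -1.04 to -0.43. None of the 3 changed sign in the settings tried. Without the replicate block no gene passed in either direction (0 and 0), and 19 higher and 20 lower genes had an unadjusted p under 0.05, against 240 and 251 with it. With totals that left out rRNA-named genes they numbered 304 and 156. Leaving out Rbp9WT replicate 1 gave 134 and 213, Rbp9WT replicate 2 gave 67 and 68, FneWT replicate 1 gave 342 and 291, and FneWT replicate 2 gave 80 and 121. With 2 libraries a group the depth limits low genes most, since 3 reads correspond to 0.342 to 0.598 CPM in the 4 libraries.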

Other observations

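Con, which encodes the adhesion molecule connectin, differed between the proteins in 1 replicate pair. It read 1220 CPM in Rbp9WT replicate 1 and 102 CPM in FneWT replicate 1, but 11.95 and 11.8 CPM in the replicate 2 libraries. Untreated cells held 448 and 3.67 CPM and ElavWT cells 459 and 6.60 CPM, so every replicate 1 library stood above its replicate 2 partner. jef read 108 and 21.7 CPM in Rbp9WT and 90.2 and 2.18 CPM in FneWT, apart mainly in replicate 2. These genes were chosen after their values were seen.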
